A study of Mus musculus with 28 samples.

Results

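Heat shock proteins and the Dnaj cochaperones are the core of the cellular machinery that folds, refolds and unloads proteins. The genes described here are those of the comparison tables whose mean normalized count reached 20 and whose name begins with Hspa, Hspb, Hspd, Hspe, Hsph, Hsp90 or Dnaj, together with Hsf1, Hsf2 and Bag3. They number 63 of the 14067 genes at that level. A further 14 matching names fell below it, among them the small heat shock protein Hspb1 with a mean of 2.38. Closest to the limit were Hspa1a (26.7), Dnajc4 (30.4) and Hspa1b (37.4) inside it, and Dnajc28 (17.6), Dnajb3 (9.16) and Hspb6 (9.03) outside it, all as mean normalized counts of the authors' deposited tables. The members comprised 12 HSP70 and HSP110 genes, 3 HSP90 genes, 2 mitochondrial chaperonin genes, 5 genes named Hspb, 4 DNAJA, 9 DNAJB and 25 DNAJC genes, and the 3 regulators Hsf1, Hsf2 and Bag3.

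Nascent RNA had been measured by Bru-seq, in which bromouridine given for a short time marks the RNA made in that interval. Cortices and hippocampi of CD1 mouse embryos (embryonic day 18) were pooled for each replicate, and the cultures, labelled as neurons with astrocytes and oligodendrocyte precursor cells, were infected on day in vitro 14 with a lentivirus that carried either a control hairpin (the shCtrl arm) or one targeting Rai1 (the shRai1 arm). On day 17 each arm was treated for 4 h with vehicle (water), with 1 µM tetrodotoxin (TTX), a blocker of voltage-gated sodium channels, or with 20 µM bicuculline (BIC), a blocker of GABA-A receptors, and 2 mM bromouridine was present for the last 20 min. The 6 groups held 3 libraries each, except shCtrl with vehicle (2 libraries) and shCtrl with BIC (2 libraries), 16 in all. RAI1 itself is a chromatin protein whose loss causes Smith-Magenis syndrome. The knockdown acted from an infected culture of mixed cells, so every value is an average over cell types, and fewer cells of a type and less RNA per cell cannot be told apart. The labels do not say whether replicates of the 2 arms came from the same preparation. P-values measure the spread between these samples, which may in part be technical.

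HSP70 proteins bind exposed stretches of client proteins in a cycle driven by ATP. J-domain proteins of the Dnaj families deliver clients and trigger ATP hydrolysis, while exchange factors such as the HSP110 proteins and BAG3 release the nucleotide. HSP90 receives part of the clients from HSP70. Under proteotoxic stress the factor HSF1 induces the cytosolic set, and the unfolded protein response induces the set of the endoplasmic reticulum (ER). In neurons the constitutive HSP70 and its J-domain partners also uncoat clathrin vesicles and keep synaptic proteins folded.

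Of the series as a whole, 4074 genes (29.0%) passed the test under TTX in shCtrl and 7185 (51.1%) under BIC in shRai1, in the authors' deposited tables, against 122 (0.867%) for the knockdown in vehicle. A gene is called here when its adjusted p is under 0.05. The nascent signal of Rai1 gave no check of the arm labels: the log2 difference of shRai1 from shCtrl in vehicle was 0.16 (SE 0.073, adjusted p = 0.357) in the authors' deposited table. In the shCtrl cultures all 8 neuron, 6 astrocyte and 6 oligodendrocyte precursor markers had FPKM above 0 in the authors' deposited table. In vehicle so had all 6 microglia and all 6 endothelial and mural markers, so a value above 0 does not by itself show that a cell type was present. Summed marker FPKM in vehicle, TTX and BIC was 594, 524 and 590 for neurons, 195, 159 and 148 for astrocytes, 131, 92.4 and 109 for oligodendrocyte precursor cells, and 21.6, 22.7 and 31.3 for microglia, per the same authors' table. Endothelial and mural markers summed to between 3.35 and 4.59 FPKM in the authors' deposited table, with Cldn5 at 0 under TTX and under BIC.

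Levels per gene length spanned the family widely. In the authors' deposited FPKM table, which holds 1 pooled value per condition with a lower and an upper bound, vehicle-treated shCtrl cultures ranged, leaving out a gene listed at 0, from 1.81 FPKM for Hspa1a to 348 FPKM for Hspa8, with a median of 13.9. The authors' deposited FPKM of Hspa8, the constitutive HSP70, was 348 with vehicle (bounds 266 to 430), 253 with TTX (195 to 311) and 321 with BIC (246 to 397). Next in order came Hsp90ab1, the constitutive cytosolic HSP90, at 205 FPKM with vehicle, 176 with TTX and 147 with BIC in the authors' deposited table. The ER HSP70 Hspa5, also called BiP, stood at 109 FPKM with vehicle, 76.8 with TTX and 124 with BIC, per that authors' deposited table. The inducible HSP70 genes Hspa1a and Hspa1b had the lowest level and one of the lowest, 1.81 and 2.36 FPKM in vehicle (authors' deposited table). Dnajc5b was listed at 0 FPKM in all 3 conditions although its mean normalized count was 504, so no level is given for it. Values per library were not analysed here. The separation of single libraries between groups can therefore not be stated, and the standard errors below are those of the model or of contrasts built from it.

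**Figure D1:**
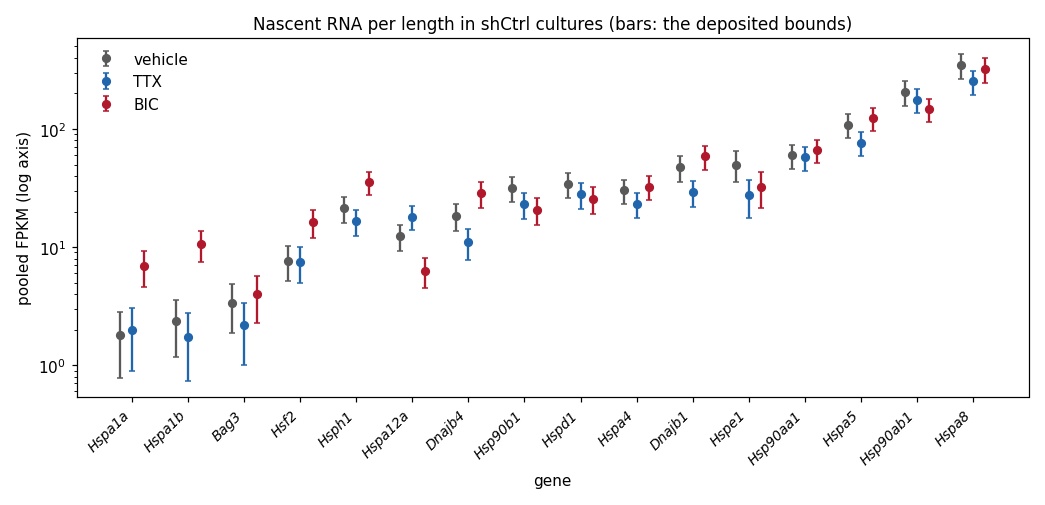
Pooled FPKM (log axis) of 16 members in shCtrl cultures with vehicle (grey), TTX (blue) or BIC (red); points are the deposited pooled values and bars the deposited bounds. Hspa1a, Hspa1b, Hsf2 and Hsph1 have BIC bounds above those of vehicle, and Hspa12a has BIC bounds below them.

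Blocking activity with TTX lowered the nascent RNA of 26 of the 63 members and raised that of 7 (41.3% and 11.1%), as the average of the responses in both arms. Among all 14067 genes, 23.3% were lower and 20.3% higher by the same test, and 43.5% passed it in either direction. The median log2 change was -0.086 over the members and -0.001 over all genes. No test compares the list with other genes. Every average given here is a Wald test computed from the responses in the 2 arms, adjusted by the Benjamini-Hochberg method over all 14067 genes. By arm, the authors' deposited tables called 26 members in shCtrl (5 higher and 21 lower, against 12.7% and 16.3% of all genes) and 29 in shRai1 (7 higher and 22 lower, against 14.8% and 18.4%). Of all genes 29.0% and 33.2% were called in either direction. In both arms 20 members were called, 4 higher and 16 lower, each in the same direction, which is 76.9% of the calls in shCtrl and 69.0% of those in shRai1. For all genes, 2829 were called in both arms, 69.4% and 60.6% of the calls.

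The HSP70 and HSP110 class under TTX held 7 members that fell and 2 that rose of 12, beside 23.3% and 20.3% of all genes. Hspa4, an HSP110-type exchange factor, had the lowest average of all members: its log2 change was -0.84 (SE 0.054, adjusted p = 3.14e-52), a fold of 0.560. The authors' deposited tables gave -0.89 in shCtrl and -0.79 in shRai1 for Hspa4, so the arms were close. The pooled FPKM of Hspa4 moved less, from 30.2 in vehicle to 23.1 in TTX in the authors' deposited table, a log2 ratio of -0.38. Hsph1, the inducible HSP110, fell by 0.53 on the log2 scale (SE 0.058, adjusted p = 5.50e-18), and its authors' deposited FPKM was 21.3 in vehicle and 16.5 in TTX. Hspa8 fell by 0.42 (SE 0.072, adjusted p = 2.89e-08), Hspa5 by 0.40 (SE 0.066, adjusted p = 1.80e-08) and the mitochondrial HSP70 Hspa9 by 0.37 (SE 0.047, adjusted p = 3.73e-14). Hspa14, a ribosome-associated HSP70, fell by 0.43 (SE 0.066, adjusted p = 7.04e-10), and Hspa13 of the ER fell by 0.30. Hspa12a, a distant HSP70 relative, rose instead: its average was 0.52 (SE 0.055, adjusted p = 2.06e-20), with 0.70 in shCtrl and 0.35 in shRai1 in the authors' deposited tables. Hspa4l, the third HSP110-type gene, had an average of 0.18 (adjusted p = 0.0272). The inducible pair Hspa1a and Hspa1b did not pass the test, with averages of -0.09 (SE 0.24) and -0.29 (SE 0.22).

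J-domain partners in the DNAJB class fell in 7 of 9 cases under TTX, where 23.3% of all genes did. Dnajb1, the stress-inducible HSP40, had a log2 change of -0.69 (SE 0.12, adjusted p = 2.38e-08), and its authors' deposited FPKM went from 47.2 in vehicle (bounds 35.7 to 58.7) to 29.2 in TTX (21.9 to 36.4). Dnajb11, the ER partner of BiP also called ERdj3, fell by 0.63 (SE 0.071, adjusted p = 1.20e-17). Dnajb2, a J protein enriched in neurons, fell by 0.54 (SE 0.082, adjusted p = 5.50e-10), and Dnajb5 fell by 0.46 (SE 0.071, adjusted p = 7.76e-10). Dnajb9 (ERdj4), Dnajb4 and Dnajb6 also fell, with averages of -0.40, -0.29 and -0.12. The only DNAJB gene that rose was Dnajb14, an ER membrane J protein, at 0.34 (SE 0.069, adjusted p = 4.88e-06), although its pooled FPKM was 6.03 in vehicle and 5.50 in TTX in the authors' deposited table. In DNAJA, Dnaja1 fell by 0.41 (SE 0.055, adjusted p = 1.19e-12) and Dnaja2 by 0.24, while the mitochondrial Dnaja3 had 0.12 and Dnaja4 0.05 and did not pass.

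The large DNAJC class, whose members mostly serve a specific client or site, had 3 of 25 genes that rose and 4 that fell under TTX, where 20.3% and 23.3% of all genes did. Dnajc19, a subunit of the mitochondrial import motor, had 0.47 (SE 0.14, adjusted p = 0.00175), Dnajc24, of the diphthamide pathway, 0.35 (SE 0.083, adjusted p = 9.97e-05) and Dnajc17 0.27. Dnajc2, the partner of Hspa14 at the ribosome, fell by 0.36 (SE 0.070, adjusted p = 2.74e-06), and Dnajc1, Dnajc25 and Dnajc13 had -0.28, -0.26 and -0.19. The interval of Dnajc19 overlaps Fxr1 in the deposited annotation, and its authors' deposited FPKM did not share the sign of the count-based change, with 24.3 in vehicle and 21.2 in TTX and overlapping bounds. In the authors' deposited tables this held for 5 of the 26 members called under TTX in shCtrl: Dnajc19, Dnajb14 (log2 FPKM ratio -0.13), Dnajc17 (-0.14), Dnajc2 (0.08) and Dnajc13 (0.11). The sign of their response to TTX thus depends on which of the authors' deposited measures is read. Under BIC in shCtrl the signs differed for 2 of 27 called members, Dnajc8 (FPKM 17.6 in vehicle and 17.5 in BIC) and Dnaja2 (24.2 and 24.1), whose pooled FPKM barely differed between conditions in the authors' deposited table. Dnajc5, the cysteine string protein of synaptic vesicles, had -0.07 (SE 0.046, adjusted p = 0.217), and Dnajc6, the clathrin uncoating cofactor auxilin, 0.02 (SE 0.056, adjusted p = 0.819).

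HSP90, chaperonin and Hspb-named genes completed the response to TTX. Hsp90b1, the ER HSP90 known as GRP94, fell by 0.58 (SE 0.066, adjusted p = 1.35e-17), and Hsp90ab1 fell by 0.20 (SE 0.057, adjusted p = 0.00141). Hsp90aa1, the inducible cytosolic form, had -0.11 (SE 0.078) and was not called. Hspd1 and Hspe1, the mitochondrial HSP60 and HSP10 that share a bidirectional promoter, fell alike, by 0.45 (SE 0.064, adjusted p = 1.99e-11) and 0.49 (SE 0.096, adjusted p = 1.85e-06). Hspb11 rose by 0.74 (SE 0.10, adjusted p = 2.05e-11). Despite its name it encodes the intraflagellar transport protein IFT25, not a small heat shock protein. The small heat shock genes proper, Hspb7 and Hspb8, had 0.09 (SE 0.16) and 0.17 (SE 0.13) and did not pass. Of the regulators, Bag3 fell by 0.38 (SE 0.10, adjusted p = 5.10e-04), whereas Hsf1 had -0.05 (SE 0.062) and Hsf2 0.16 (SE 0.069, adjusted p = 0.0510).

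**Figure D2:**
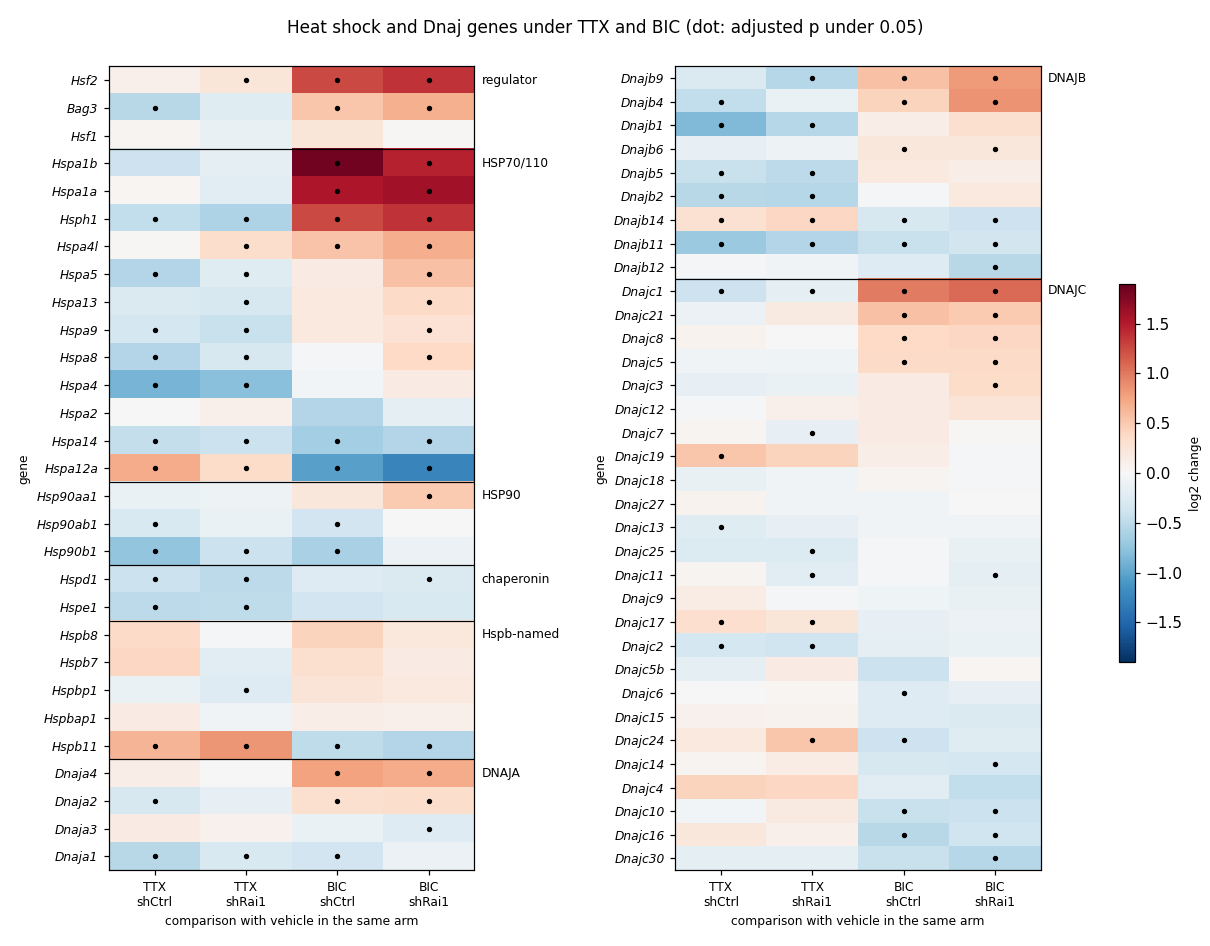
Log2 change from vehicle (colour, red higher and blue lower) for each of the 63 members in the TTX and BIC comparisons of the shCtrl and shRai1 arms, by class and, within it, by the average BIC response; dots mark adjusted p under 0.05. Hsph1, Hspa1a, Hspa1b, Hsf2 and Dnajc1 have the highest BIC values, Hspa12a the lowest, and most called TTX values are below 0.

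Raising activity with BIC split the family: 23 members rose and 19 fell as the average over both arms (36.5% and 30.2%). Among all genes, 27.8% were higher and 30.9% lower, and 58.7% were called in either direction, so the share called, 42 of 63, is near the background. The 4 averages farthest from 0 were rises, followed by the fall of Hspa12a. By arm, the authors' deposited tables called 27 members in shCtrl (15 higher and 12 lower, against 19.8% and 20.0% of all genes) and 34 in shRai1 (21 higher and 13 lower, against 25.0% and 26.1%). Of all genes 39.8% and 51.1% were called in either direction. Called in both arms were 22 members, 15 higher and 7 lower, which is 81.5% of the shCtrl calls and 64.7% of the shRai1 calls, beside 90.9% and 70.8% for all genes (5088 called in both). With changes centred on the median of all genes, 29 members were called in shCtrl, 19 higher and 10 lower.

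The inducible HSP70 genes had the highest averages under BIC, and the exchange factor Hsph1 was close to Hsf2 behind them. Hspa1a had the lowest mean normalized count of all members (26.7), and that mean includes the BIC libraries. The place of Hspa1a among the members, and so its rank here, may therefore rest on its level under BIC. Hspa1b had an average log2 change of 1.65 under BIC (SE 0.21, adjusted p = 1.45e-14), a fold of 3.13, and Hspa1a 1.57 (SE 0.23, adjusted p = 2.20e-11), a fold of 2.96. The authors' deposited FPKM of Hspa1b was 2.36 with vehicle (bounds 1.18 to 3.54), 1.74 with TTX (0.739 to 2.74) and 10.7 with BIC (7.53 to 13.8). For Hspa1a the authors' deposited FPKM was 1.81 with vehicle (0.773 to 2.84), 1.98 with TTX (0.897 to 3.07) and 6.95 with BIC (4.62 to 9.28). BIC was thus above the bounds of the other conditions for both genes, from a low base. The pair are near-identical copies, lying at chr17:35106304-35109101 (Hspa1a) and chr17:35093374-35096183 (Hspa1b) of mm9, so the division of 50 bp reads between them is uncertain. Hsph1 (chr5:150419420-150438890 of mm9) rose by 1.31 (SE 0.060, adjusted p = 1.74e-104), a fold of 2.48, with 1.25 in shCtrl and 1.37 in shRai1 in the authors' deposited tables. Its authors' deposited FPKM went from 21.3 in vehicle (16.1 to 26.5) to 35.5 in BIC (27.4 to 43.6), a smaller log2 ratio of 0.74.

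The whole HSP70 and HSP110 class had 8 of 12 genes called higher and 2 lower under BIC, Hspa1a, Hspa1b and Hsph1 included, beside 27.8% and 30.9% of all genes. Hspa1a and Hspa1b, whose places among the members may rest on their levels under BIC, are both counted in the 8. As near-identical copies they are not separate evidence. Hspa4l rose by 0.62 (SE 0.075, adjusted p = 2.28e-15), but its pooled FPKM was 5.81 in vehicle and 5.89 in BIC in the authors' deposited table, a log2 ratio of 0.02. Its relative Hspa4, the deepest fall under TTX, had 0.05 (SE 0.057, adjusted p = 0.448). Hspa5 rose by 0.35 (SE 0.069, adjusted p = 1.15e-06), Hspa13 by 0.27, Hspa9 by 0.22 and Hspa8 by 0.17 (adjusted p = 0.0411). With adjustment over every tested gene, 21 of the 23 rises among members stayed called. Those lost were Hspa8 and Hspb8, which had the largest adjusted p. In the authors' deposited tables Hspa8 had -0.03 in shCtrl and 0.38 in shRai1, called in shRai1 alone. Its authors' deposited shCtrl FPKM was 348 in vehicle and 321 in BIC. Hspa12a (chr19:58870241-58935474 of mm9) fell by 1.14 (SE 0.062, adjusted p = 9.56e-74), to a fold of 0.452. The authors' deposited FPKM of Hspa12a was 12.4 with vehicle (9.35 to 15.4), 18.1 with TTX (13.9 to 22.4) and 6.28 with BIC (4.53 to 8.03), in the reverse order to Hsph1. Hspa14 fell by 0.60 (SE 0.071, adjusted p = 2.23e-16) as well.

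The regulators differed from each other under BIC. Hsf2, a relative of HSF1 that binds the same element, rose by 1.32 (SE 0.071, adjusted p = 8.79e-75), a fold of 2.49, with 1.26 in shCtrl and 1.37 in shRai1 in the authors' deposited tables. Its authors' deposited FPKM was 7.67 with vehicle (5.14 to 10.2), 7.46 with TTX (4.99 to 9.94) and 16.4 with BIC (11.9 to 20.8). Bag3, which links HSP70 clients to autophagy, rose by 0.59 (SE 0.10, adjusted p = 1.91e-08). Hsf1, the main stress-responsive factor, had 0.13 (SE 0.066, adjusted p = 0.0815) and was called in none of the 7 deposited comparisons. With changes centred on the median of all genes, Hsf1 under BIC in shCtrl had 0.27 with an adjusted p of 0.0251.

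The Dnaj families moved both ways under BIC: 2 DNAJA genes rose and 2 fell of 4, 3 DNAJB rose and 3 fell of 9, and 5 DNAJC rose and 7 fell of 25, beside 27.8% higher and 30.9% lower of all genes. Dnajc1, the ER membrane J protein ERdj1, rose by 1.04 (SE 0.056, adjusted p = 7.82e-74), a fold of 2.05. Its annotated interval of 338 kb overlaps Mllt10, and its pooled FPKM gave a smaller log2 ratio of 0.36 (authors' deposited FPKM 22.7 in vehicle and 29.2 in BIC). Dnaja4 rose by 0.74 (SE 0.078, adjusted p = 6.68e-20), Dnajb9 by 0.68 (SE 0.10, adjusted p = 3.74e-10) and Dnajb4 by 0.64 (SE 0.075, adjusted p = 7.24e-17). Dnajc21, a factor of ribosome biogenesis, rose by 0.52 (SE 0.093, adjusted p = 8.71e-08), Dnajc8 by 0.38, the synaptic Dnajc5 by 0.37 (SE 0.049, adjusted p = 2.62e-13), Dnaja2 by 0.32, Dnajc3 by 0.25 and Dnajb6 by 0.21. Dnajb1, lower under TTX, had 0.22 (SE 0.12, adjusted p = 0.114).

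Apart from Hspa12a at -1.14 and Hspa14 at -0.60, no average under BIC was below the -0.52 of Hspb11. Hspb11 fell by 0.52 (SE 0.12, adjusted p = 5.63e-05), but its FPKM carried wide bounds. Dnajc30, a mitochondrial J protein, fell by 0.48 (adjusted p = 0.00842), Dnajc16 by 0.45 (SE 0.079, adjusted p = 5.48e-08), the ER reductase Dnajc10 by 0.41 (SE 0.084, adjusted p = 3.47e-06), Dnajb12 and Dnajb11 each by 0.39, and Dnajb14 by 0.35. Dnajc14, Dnajc24, Dnajc15 and Dnaja3 fell by 0.32, 0.31, 0.27 and 0.19. Hsp90b1 fell by 0.36 (SE 0.070, adjusted p = 1.28e-06) and Hsp90ab1 by 0.18 (SE 0.061, adjusted p = 0.00556), while Hsp90aa1 rose by 0.35 (SE 0.083, adjusted p = 5.16e-05). The falls were called in shCtrl alone in the authors' deposited tables: Hsp90b1 had -0.61 there and -0.11 in shRai1, and Hsp90ab1 had -0.36 and -0.01. Hspd1 and Hspe1 fell by 0.26 and 0.32 as averages, but in the authors' deposited tables Hspd1 was called in shRai1 alone and Hspe1 in neither arm (adjusted p = 0.0669 in shCtrl and 0.0541 in shRai1). Dnajc6 fell by 0.20 (SE 0.060, adjusted p = 0.00215).

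TTX and BIC responses of an arm share their vehicle libraries, so they were set side by side across arms, TTX in shCtrl with BIC in shRai1, which share none. In those authors' deposited tables the 2 comparisons shared 14 called members. Of these, 8 were lower under TTX and higher under BIC: Bag3, Dnaja2, Dnajb4, Dnajc1, Hspa5, Hspa8, Hspa9 and Hsph1. Dnajb14, Hspa12a and Hspb11 were higher under TTX and lower under BIC, and Dnajb11, Hspa14 and Hspd1 were lower under both. Among all genes, 2776 were called in both comparisons, 2332 in opposite and 444 in the same direction. In the other pairing, TTX in shRai1 with BIC in shCtrl, 13 members were called in both tables of the authors' deposited set. There Dnajb9, Dnajc1 and Hsph1 went from lower to higher, and Dnajb14, Dnajc24, Hspa12a and Hspb11 from higher to lower. Dnaja1, Dnajb11, Hsp90b1 and Hspa14 were lower under both drugs in that pairing, and Hsf2 and Hspa4l were higher under both. With adjustment over every tested gene, Dnajc1 and Hsf2 lost their calls under TTX in shRai1 (adjusted p = 0.0649 and 0.0580). For all genes the pairing gave 1928 opposite and 558 same-direction calls of 2486. Hsph1, Dnajb14, Hspa12a and Hspb11, and with the authors' adjustment only Dnajc1, thus had opposite calls in both pairings, and Dnajb11 and Hspa14 were lower in both. For Dnajb14 the pooled FPKM of the shCtrl arm did not show this, being lower than in vehicle under both drugs (6.03 in vehicle, 5.50 in TTX and 3.49 in BIC, authors' deposited table). The 2 pairings share the vehicle libraries of each arm with one another, so the second is not an independent repeat of the first. How many of all genes had the same pattern in both pairings was not counted.

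**Figure D3:**
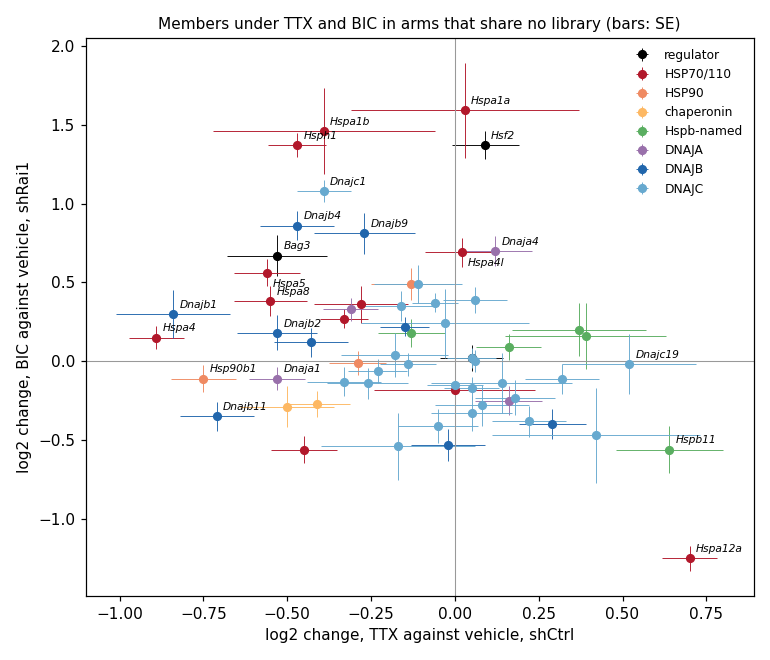
Log2 change under TTX in shCtrl (x axis) against log2 change under BIC in shRai1 (y axis) for the 63 members, coloured by class, with SE bars; the 2 comparisons share no library. Hsph1 and Dnajc1 lie at upper left, Hspa12a and Hspb11 at lower right, and Dnajb11 at lower left.

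Members were also grouped by site or mode of induction, in lists that overlap. Beside each count stand the shares of all genes, 23.3% lower and 20.3% higher under TTX and 27.8% higher and 30.9% lower under BIC. The list of heat-inducible genes, which are cytosolic except for Hspd1 and Hspe1 and include the largely constitutive Hspa8, had 8 of 11 tested members lower under TTX and none higher, and 7 higher and 3 lower under BIC. Hspd1 and Hspe1 are among the lower ones under each drug, and the other lower one under BIC was Dnaja1. The higher ones under BIC include the near-identical Hspa1a and Hspa1b, whose places among the members may rest on their levels under BIC. Also among the higher ones is Hspa8, whose call was lost with adjustment over every tested gene. The medians were -0.412 and 0.354, against -0.001 and -0.033 over all genes. The ER-resident list had 7 of 9 lower and none higher under TTX, and 5 higher and 3 lower under BIC, the last being Hsp90b1, Dnajb11 and Dnajc10. The list leaves out other J proteins of the ER membrane, among them Dnajb12, Dnajb14, Dnajc14 and Dnajc16. Of these Dnajb14 was called higher under TTX (0.34), and all 4 were lower under BIC (-0.39, -0.35, -0.32 and -0.45), so the balance of rises and falls under BIC depends on which genes are listed. Of the 8 tested mitochondrial genes, Hspd1 and Hspe1 again included, 3 were lower and 1 (Dnajc19, of uncertain sign by FPKM) higher under TTX, and 5 were lower and 1 (Hspa9) higher under BIC. The synaptic and clathrin-uncoating list had 3 of 5 lower under TTX (Hspa4, Hspa8 and Dnajc13, the last without a fall in FPKM), and 2 higher (Dnajc5 and Hspa8) with 1 lower (Dnajc6) under BIC. The rise of Hspa8 lost its call with adjustment over every tested gene, and its pooled shCtrl FPKM did not rise under BIC.

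Promoter sequence was examined for the elements through which these genes are classically induced. RefSeq windows of 300 bases (GRCm38.p6, from 250 bases before the start site) were at hand for 50 of the 63 members, and not for Dnajc11, Dnajc12, Dnajc18, Dnajc2, Dnajc30, Dnajc5, Dnajc5b, Hsf1, Hsp90aa1, Hsp90ab1, Hspa13, Hspa8 and Hspa9. These members had 66 windows, as some have more than 1. The letters GAANNTTCNNGAA, a heat shock element of 3 units, were searched on both strands and found in 4 members, Hspd1, Hspe1, Dnajb6 and Hsph1. That was 6 of the 66 member windows, beside 0.603% of all 32851 windows. Shorter GAANNTTC, which the longer letters contain, was found in 11 members, in 13 of the 66 windows, and in 7.86% of all windows. The sequences of the member with the smallest adjusted p under BIC, of the promoter shared by the chaperonin pair, and of inducible Hspa1b are shown with the matched letters in capitals.
Hsph1 (chr5:149636287-149636308, minus strand): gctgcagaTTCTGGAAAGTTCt
Hspe1 (chr1:55088029-55088106, plus strand): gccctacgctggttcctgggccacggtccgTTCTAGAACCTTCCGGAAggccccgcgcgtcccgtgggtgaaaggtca
Hspa1b (chr17:34959305-34959372, minus strand): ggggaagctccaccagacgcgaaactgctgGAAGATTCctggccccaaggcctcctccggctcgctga
The match of Hsph1 lies 36 to 48 bases after one annotated start. The capitals of Hspe1 are 2 overlapping matches, which also lie in the window of Hspd1 on the opposite strand. The windows of Hspa1a and Hspa1b were identical at 296 of 300 positions. The 4 genes with the longer element, of which Hspd1 and Hspe1 share 1 site, fell under TTX, where 23.3% of all genes did, with averages of -0.53 for Hsph1, -0.49 for Hspe1, -0.45 for Hspd1 and -0.12 for Dnajb6. Dnajb6 was called in neither arm alone under TTX in the authors' deposited tables (adjusted p = 0.115 and 0.250). Under BIC the averages of Hsph1 and Dnajb6 were higher (1.31 and 0.21) and those of Hspe1 and Hspd1 lower (-0.32 and -0.26). A match to letters is a description and not a bound site.

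The ER stress response element, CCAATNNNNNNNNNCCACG, was found on either strand in 3 members, Hspa5, Hsp90b1 and Dnajc3. That was 3 of the 66 member windows, beside 0.119% of all windows. The stretches of the paired ER chaperones Hspa5 and Hsp90b1 are shown because these were the 2 members called between the shRNA arms in vehicle. Dnajc3 was not called there, with -0.03 (adjusted p = 0.952) in the authors' deposited DESeq2 table. Nor was any of 19 tested genes of ER folding and the unfolded protein response, a list followed below. A link between the element and the knockdown was not tested.
Hspa5 (chr2:34771995-34772073, plus strand): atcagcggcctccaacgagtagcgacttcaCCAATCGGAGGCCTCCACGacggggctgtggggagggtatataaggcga
Hsp90b1 (chr10:86705503-86705686, minus strand): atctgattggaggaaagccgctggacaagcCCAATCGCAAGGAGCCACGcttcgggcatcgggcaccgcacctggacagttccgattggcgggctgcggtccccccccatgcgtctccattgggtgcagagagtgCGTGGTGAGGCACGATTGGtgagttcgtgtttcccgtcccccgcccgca
Capitals mark the element, which Hsp90b1 holds at 2 places, on opposite strands. Under BIC these genes went apart: averages were 0.35 for Hspa5, 0.25 for Dnajc3 and -0.36 for Hsp90b1, all called. The cAMP response element TGACGTCA, through which activity acts on many neuronal genes, was found in 1 member, Dnajc27. That was 1 of the 66 member windows, beside 1.79% of all windows. Dnajc27 had averages of 0.00 under TTX and -0.03 under BIC and was not called.

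Knockdown of Rai1 lowered 2 of the 63 members in vehicle, where 0.867% of all genes were called in the authors' deposited table, 0.739% lower and 0.128% higher. Hsp90b1 (chr10:86153586-86168189 of mm9) was lower in shRai1 with a log2 change of -0.37 (SE 0.097, adjusted p = 0.0261) and Hspa5 (chr2:34627610-34632049) with -0.36 (SE 0.098, adjusted p = 0.0405), in the authors' deposited table. With the Benjamini-Hochberg adjustment over every tested gene in place of the authors' deposited one, Hspa5 had an adjusted p of 0.0572 and lost its call. Next were Dnajb4 at -0.34 (SE 0.11, adjusted p = 0.0946), Dnaja1 at -0.26 (SE 0.082, adjusted p = 0.108) and Hspa8 at -0.32 (SE 0.11, adjusted p = 0.154) in the authors' deposited table, none of them called. At an unadjusted p under 0.05 stood 11 of the 63 members, against 1584 of 14067 genes (11.3%). Under TTX and under BIC no member was called for the knockdown by DESeq2 in the authors' deposited tables, where 0.0427% and 0.0142% of all genes were. At an unadjusted p under 0.05 these tables held 3 of 63 members (Hspa12a, Hspa9 and Hsph1, all lower) and 2 of 63 (Dnajc21 lower and Dnajc27 higher), against 4.46% and 3.98% of all genes. Hsp90b1 had -0.03 under TTX and 0.13 under BIC, and Hspa5 -0.03 and 0.05, in the authors' deposited tables.

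Whether the drug responses differed between the arms was tested by subtracting the shCtrl response from the shRai1 response, an interaction. No member passed for TTX (1.34% of all genes) or for BIC (0.0284%) in these Wald tests. At an unadjusted p under 0.05 stood 10 of 63 members for TTX, against 1586 of 14067 genes (11.3%). For BIC it was 7 of 63 members, against 507 of 14067 genes (3.60%). For TTX the smallest p was that of Hspa12a, with a difference of -0.34 (SE 0.11, unadjusted p = 0.00169, adjusted p = 0.0827). For BIC it was that of Hsp90b1, with 0.50 (SE 0.14, unadjusted p = 3.63e-04, adjusted p = 0.365): the authors' deposited tables gave -0.61 in shCtrl, called, and -0.11 in shRai1, not called. Hsp90ab1 had a difference of 0.36 (SE 0.12, unadjusted p = 0.00369, adjusted p = 0.936), Hspa5 0.41 (SE 0.14, adjusted p = 0.936), Hspa8 0.41 (SE 0.15, adjusted p = 1.000) and Dnajb4 0.44 (SE 0.15, adjusted p = 0.849) for BIC. Calls of Hspa5, Hspa8, Hspa9, Hspa13, Hsp90aa1 and Dnajc3 under BIC in shRai1 that were not made in shCtrl therefore do not show a difference between arms. These contrasts and the knockdown in vehicle rest on the same 2 shCtrl vehicle libraries.

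Markers of oligodendrocyte precursor cells differed between the arms as well. Of 5 tested, 4 were lower in shRai1 in vehicle in the authors' deposited table: Pdgfra at -1.37, Cspg4 at -0.78, Olig1 at -0.73 and Olig2 at -0.60. Of all genes 0.739% were lower there. In comparisons without the vehicle libraries, the authors' deposited tables gave all 5 above 0 for the knockdown under TTX (median 0.498, Pdgfra called at 0.50) and all 5 below 0 under BIC (median -0.492, Pdgfra called at -0.90). The same authors' deposited tables called 4 of the 5 lower under TTX in shCtrl and 4 higher under TTX in shRai1, where 16.3% and 14.8% of all genes were. The interaction for TTX was called for all 5, beside 1.34% of all genes. The neuron marker Rbfox3 was higher in shRai1 in vehicle (0.24, adjusted p = 0.0494, authors' deposited table), while of 6 astrocyte markers none was called. All 6 astrocyte markers were below 0 there (median -0.212), 3 of them at an unadjusted p under 0.05 by DESeq2 in the authors' deposited table. The part of this shift in cell markers in the difference of Hsp90b1 and Hspa5 was not tested. For the averages that follow, all genes had 27.8% higher and 30.9% lower under BIC, and 20.3% higher and 23.3% lower under TTX. Under BIC, averages of neuron markers were called higher for 4 of 8 and lower for 3, of astrocyte markers lower for 1 of 6, and of oligodendrocyte precursor markers lower for 1 of 5. Cx3cr1, a microglial marker, rose by 0.76 (SE 0.15, adjusted p = 2.19e-06). Under TTX, averages of neuron markers were higher for 1 and lower for 3 of 8, and those of astrocyte markers lower for 3 of 6. Those of oligodendrocyte precursor markers were lower for 1 of 5 (Olig2, -0.29). Of 2 tested endothelial and mural markers, Pecam1 was higher under TTX (0.64) and Pdgfrb lower under BIC (-0.50). The part of these markers in the drug responses of the members was not tested.

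**Figure D4:**
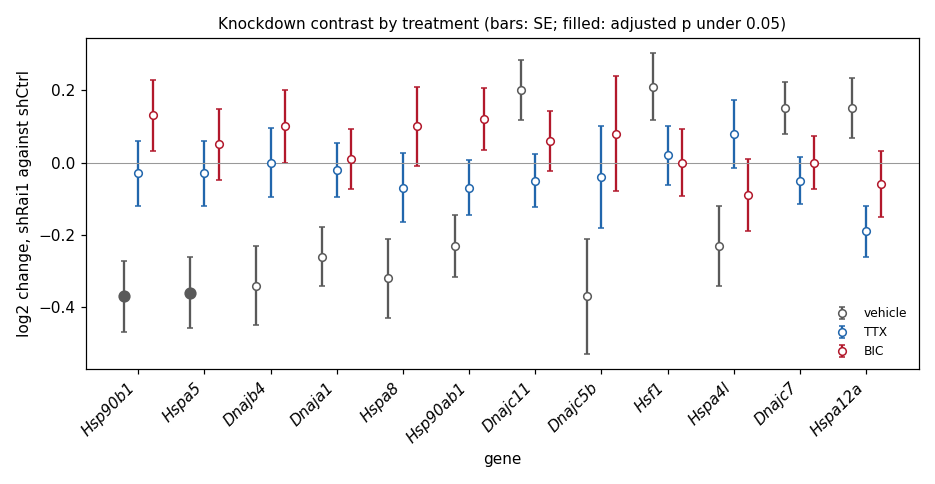
Log2 difference of shRai1 from shCtrl in vehicle (grey), TTX (blue) and BIC (red) for the 12 members with the smallest p in vehicle; bars are SE and filled points have adjusted p under 0.05. Only Hsp90b1 and Hspa5 in vehicle are filled, at -0.37 and -0.36, and their TTX and BIC values lie near 0.

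Genes that work with the members but are not among them were followed as lists. Of 22 cytosolic cochaperones, 6 fell and 2 rose under TTX, and 8 rose and 5 fell under BIC. All genes had 23.3% lower and 20.3% higher under TTX, and 27.8% higher and 30.9% lower under BIC, so the share of cochaperones that fell under TTX is near that background. Unc45a, an HSP90 cochaperone for myosin folding, fell by 0.82 under TTX (SE 0.076, adjusted p = 7.91e-26). Sgtb, a neuronal cochaperone of HSP70, rose by 0.95 under BIC (SE 0.071, adjusted p = 3.26e-40). Bag2, a relative of Bag3, fell by 0.42 under TTX and rose by 0.67 under BIC, and St13, an HSP70-interacting protein, rose by 0.53 under BIC. In the other direction, the 5 that fell under BIC were Bag5, Bag6, Fkbp5, Stub1 and Sgta, a relative of Sgtb. The 2 that rose under TTX were Bag1 and Fkbp5.

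The cytosolic chaperonin TRiC, which folds actin and tubulin, had 6 of 8 subunit genes lower and none higher under TTX, and 3 higher and 1 lower under BIC, beside 23.3% lower and 20.3% higher (TTX) and 27.8% higher and 30.9% lower (BIC) of all genes. Its Cct8 subunit fell by 0.47 (SE 0.071, adjusted p = 3.08e-10) and rose by 0.51 (SE 0.074, adjusted p = 2.42e-11). Among 19 tested genes of ER folding and the unfolded protein response, 8 fell and 2 rose under TTX, and 5 rose and 9 fell under BIC, the share of rises being near the 27.8% of all genes. Atf6, a sensor of that response, rose by 1.33 under BIC (SE 0.053, adjusted p = 5.26e-135), and Sdf2l1, a BiP-associated factor, by 1.32 (SE 0.18, adjusted p = 1.33e-12). Hyou1, the HSP110 of the ER, fell by 0.47 under TTX and by 0.33 under BIC, averages that share their vehicle libraries. Manf was the gene of these lists whose TTX response differed between arms, by -0.58 (SE 0.16, adjusted p = 0.0274). Of 6 other heat shock factor targets, 3 fell under TTX, and under BIC Cryab, a small heat shock protein, rose by 1.02 (SE 0.16, adjusted p = 4.96e-10) and Mrpl18 fell by 0.40.

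Gene length, which can shape nascent signal since long genes take longer to transcribe, was set against the responses as a description. The lengths used are those of the intervals in the deposited FPKM annotation. Of 22457 symbols matched to RefSeq, 8136 had an interval of the RefSeq length. Intervals of members spanned 2.76 to 338 kb with a median of 23.8 kb. For 9 members they overlap other genes (Dnaja1, Dnaja4, Dnajb6, Dnajb11, Dnajc1, Dnajc14, Dnajc17, Dnajc19 and Dnajc30), so they need not be the length of the gene itself. The 338 kb are the interval of Dnajc1, which overlaps Mllt10. Across the 63 members, which share libraries and are not replicates, interval length and the average response had Spearman's rho of 0.303 under TTX and -0.185 under BIC. Across all genes with an interval it was -0.0635 and 0.145.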

How the data were processed

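Reads were mapped with TopHat2 2.1.0 and Bowtie2 2.2.6 to mm9 and compared with DESeq2, per the submitters' processing notes. The authors deposited 7 comparison tables with, per the file headers, a mean normalized count (a signal averaged over libraries), a log2 fold change with its SE, a Wald score, and the p-value before and after adjustment. The log2 changes, p-values and other columns were taken as deposited. The authors' FPKM table gives pooled values with bounds, per the file headers. Its knockdown columns were not used, since they could not be matched to the deposited knockdown contrasts. The vehicle knockdown table names no genes: 20107 were named here by unique mean count.

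Averages over arms and interactions were computed with Python 3.11.15 and scipy 1.17.1 as Wald tests on the deposited log2 changes, with the SE from the squared SEs of arms that share no library, Benjamini-Hochberg adjusted over 14067 genes, and checked on simulated data. FPKM ratios used a pseudocount of 0.1. The plan assumed values per library. With summaries only, depth is unknown and the deposited errors were used. Members, lists and motifs were chosen with earlier results of these data known. Full values were given to members with a log2 change of at least 0.5 among calls (at most 12 per table), members called for the knockdown or an interaction, and a set of textbook members. Other members and list genes named with values were chosen after these were seen. Thresholds, the adjustment, centring, the minimum mean and the pseudocount were varied. Gene intervals follow the FPKM table. ChIP-seq (12 samples) was left out. Single values of 2 genes of the lists are not reported here.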

Additional observations from a re-analysis of the deposited data

How the results depend on the processing

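No paired analysis was possible because only summaries over libraries were used, and leaving out single replicates was not run for the same reason. In the knockdown in vehicle, 2 members were called: a threshold of 0.01 left 0, and adjustment over every tested gene left 1, Hsp90b1. For the TTX interaction, a threshold of 0.1 gave 1 call, Hspa12a, in place of 0. In the other comparisons and settings, the total of called members over both directions stayed within 1.5 times the main count. By direction, a threshold of 0.01 left 2 of the 5 members called higher under TTX in shCtrl. Counts of the classes and lists were not varied. Of 1548 values recomputed for 324 results of single genes, 1517 kept their direction and side of the threshold, 16 lost their call and 15 gained one. None reversed. These results were those of the deposited comparisons and the interactions. The averages over arms were varied as counts of members only, not gene by gene. The median member log2 FPKM ratio in shCtrl was -0.135 under TTX and -0.029 under BIC, -0.120 and -0.024 with a pseudocount of 1, and -0.041 and -0.029 over every matching name. The pooled FPKM ratio differed from the count-based change by over 0.5 for 4 members under TTX and 7 under BIC.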

Other observations

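Among members outside the main account, Hspbp1, an exchange factor and inhibitor of HSP70, fell by 0.18 under TTX (adjusted p = 0.0170) and rose by 0.22 under BIC (adjusted p = 0.00448), both as averages over the arms. In the authors' deposited tables Hspbp1 was called under TTX in shRai1 alone and under BIC in neither arm, and the pooled shCtrl FPKM did not fall, with 22.3 for vehicle and 23.4 for TTX. Hspa2, an HSP70 best known from the testis, had -0.37 under BIC (SE 0.17, adjusted p = 0.0572). Hspb8, the small heat shock partner of Bag3, rose by 0.31 under BIC (SE 0.14, adjusted p = 0.0464), with neither arm called by itself in the authors' deposited tables (0.42 in shCtrl and 0.20 in shRai1). With adjustment over every tested gene, the average of Hspb8 lost its call.

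Hspe1 and Hspd1 are read out from one shared promoter, and their averages differed by less than their standard errors under TTX (-0.49 and -0.45) and under BIC (-0.32 and -0.26). The Hspb11 signal was the one whose pooled FPKM departed most from the count-based change: in the authors' deposited table its FPKM was 4.05 in vehicle (bounds 0 to 8.26) and 0.474 in BIC (0 to 1.82), a log2 ratio of -2.86 against a deposited change of -0.48.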
